A study of Mus musculus with 24 samples.

Results

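Antigen presentation genes were followed across the cortex libraries of a mouse stroke study. The set was fixed by name as 10 genes with 4 roles. B2m, H2-D1, H2-K1 and H2-T23 encode chains of MHC class I molecules, Tap1, Tap2 and Tapbp encode the machinery that loads peptides onto them, Psmb8 and Psmb9 encode immunoproteasome subunits, and Cd74 encodes the class II invariant chain. Of these 10 genes, 8 were listed in at least 1 of the 4 deposited tables and 6 in all 4, among 14769 genes listed in at least 1 table. Psmb9 and Cd74 were listed in none. Psmb8 was listed only in the table of PI KO against PI WT, and Tap1 was listed in every table except CL KO against CL WT.

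The study measured total RNA after ribosomal RNA depletion in cortex of male mice aged 3 to 4 months. All animals had a transient occlusion of the middle cerebral artery for 1 h, the filament-type stroke model written tMCAo in the labels, and were sampled after 1 day. The 4 groups of 6 libraries were PI and CL of WT animals and PI and CL of KO animals, where KO animals lack the circular RNA ciRS-7 (also named Cdr1as) and WT animals carry it. Each animal gave 1 CL and 1 PI library, so that 6 WT and 6 KO animals stand behind 24 libraries, and all of them had the stroke. CL and PI are the labels' own names for the 2 sides or regions of the cortex and are not spelled out there. The strain field reads C57BL/6N-Cdr1asem1Nikr for WT and KO animals alike.

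MHC class I molecules show peptides from inside the cell to CD8 T cells. Proteasomes cut proteins into peptides, the immunoproteasome being a variant with exchanged catalytic subunits, and the transporter formed by TAP1 and TAP2 carries them into the endoplasmic reticulum, where tapasin (Tapbp) holds the empty class I molecule near the transporter. A class I molecule is a heavy chain, such as H2-K1 or H2-D1, paired with the light chain beta-2 microglobulin (B2m). H2-T23 is the heavy chain of the non-classical molecule Qa-1, which presents a narrow set of peptides. Class II molecules present peptides taken up from outside, with Cd74 as their chaperone. Interferons are known to raise most of these genes, and in resting brain class I levels are low compared with other organs.

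Except for B2m and Cd74, the 10 genes lie together on chromosome 17, in the mouse MHC region. In GRCm38 with the GENCODE M21 annotation, Tapbp is at chr17:33915899-33929292, H2-K1 at chr17:33996017-34000347, Psmb9 at chr17:34181987-34187764, Tap1 at chr17:34187553-34197225, Psmb8 at chr17:34197721-34201454, Tap2 at chr17:34203527-34216321, H2-D1 at chr17:35262730-35267499 and H2-T23 at chr17:36029773-36032855. B2m is at chr2:122147686-122153083. Psmb9 and Tap1 are transcribed away from each other and their annotated ends overlap by 212 bases. Tap1, Psmb8 and Tap2 follow each other on the same strand, 495 and 2072 bases apart.

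Start regions are shown for both chains of a class I molecule, the heavy chain H2-K1 and the light chain B2m, which are known targets of interferon and NF-kappaB factors. The 250 bases before the annotated transcript start are from RefSeq on GRCm38.p6, 5' to 3' on the gene's strand, at chr17:34000348-34000597 (minus strand) for H2-K1 and chr2:122147437-122147686 (plus strand) for B2m. For H2-K1, which has several starts in the table, the first was taken. In GENCODE M21 the H2-K1 window holds no exon, and the B2m window holds 1 base of the first exon. Capitals mark matches, on either strand, to 5 motifs picked after the windows had been read. They are GAANNGAAA and GAAANNGAAA (repeats as interferon regulatory factors bind them), GGGNNNNNCC (NF-kappaB type), CCAAT (the box bound by NF-Y) and TTCNNNGAA (the palindrome of gamma-activated sites), and neighbouring matches can overlap.
H2-K1: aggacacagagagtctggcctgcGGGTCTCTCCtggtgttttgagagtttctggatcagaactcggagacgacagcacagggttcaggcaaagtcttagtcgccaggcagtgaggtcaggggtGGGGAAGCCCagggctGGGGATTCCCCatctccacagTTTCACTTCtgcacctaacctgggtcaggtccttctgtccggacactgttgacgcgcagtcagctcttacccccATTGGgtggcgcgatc
B2m: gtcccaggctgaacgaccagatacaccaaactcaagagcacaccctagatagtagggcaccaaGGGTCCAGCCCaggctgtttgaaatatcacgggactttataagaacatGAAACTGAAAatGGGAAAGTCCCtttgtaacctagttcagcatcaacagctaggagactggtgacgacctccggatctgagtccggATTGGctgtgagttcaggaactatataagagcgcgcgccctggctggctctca
In H2-K1 the interferon-type repeat and the NF-kappaB-type match stand side by side, and H2-D1 holds nearly the same stretch of 30 bases, at chr17:34000429-34000458 for H2-K1 and chr17:35262923-35262952 for H2-D1. The H2-D1 stretch lies before the RefSeq start but inside the GENCODE gene, where all 250 bases of the H2-D1 window are untranslated exon.
H2-K1 element: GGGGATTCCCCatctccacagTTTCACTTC
H2-D1 element: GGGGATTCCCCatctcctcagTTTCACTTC
Counted from the first base of the H2-K1 element, the only substitution to H2-D1 is A18T, and 29 of 30 bases are alike. The longest run of bases that the 2 windows share is 47 bases. B2m and H2-T23 hold the longer repeat GAAANNGAAA instead. Among 32851 start regions of this length in the RefSeq table, 6.31% held GAANNGAAA, 2.98% held GAAANNGAAA, 8.82% held one or the other, 45.8% held GGGNNNNNCC, 33.9% held CCAAT and 7.02% held TTCNNNGAA. The windows of Tap1, Psmb9, Psmb8 and Tapbp held neither repeat. All 250 bases of each lie in annotated exons of GENCODE M21, where exons of any gene were counted. Those of Psmb9, Psmb8 and Tapbp lie inside the annotated gene, so they are not the region before it. The Tap1 window, at chr17:34187306-34187555, lies almost wholly before the annotated Tap1 start, inside the span of Psmb9 on the opposite strand. Of the H2-T23 window, 154 bases lie in annotated exons and the rest before the annotated gene. A match describes the letters only, since binding was not measured.

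Sequencing depth per library, read from the spacing of low values, was 3.74 to 10.5 megareads, with a median of 6.91 megareads. Between 80.8% and 91.3% of the low values that could be used fell within 0.05 of a whole read. The shallowest library was CL KO replicate 6 and the deepest CL KO replicate 5. A count of 3 reads, the limit that a count of 0 allows, corresponds to 0.286 to 0.802 CPM (counts scaled to a common library total), which covers counting error only. The targeted gene, Cdr1as, separated the genotypes as labelled. It lay between 11.32 and 11.93 log2 CPM in the WT libraries, its lowest and highest deposited values over the tables, and at -2.59 or lower in the KO libraries of the 2 tables that compare genotypes. Deposited values of a gene were drawn in within each group of 6, so that the lowest and the highest library cannot be read. For this reason the text gives the second lowest value, the median and the second highest value of a group.

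Levels of the members spanned a wide range. Per kilobase of exon, B2m stood first in CL WT with 43.8 CPM per kb, followed by H2-D1 with 4.67, Tapbp with 2.32, H2-K1 with 2.18, H2-T23 with 1.67, Tap2 with 0.513 and Tap1 with 0.182 CPM per kb. On the log2 scale of that level, Tapbp was at 1.21 ± 0.04 (SE, n = 6) and H2-K1 at 1.12 ± 0.10 (SE, n = 6), a gap within their errors, whereas the other neighbours in the order were further apart than the sum of their SEs. In PI WT, H2-K1 stood at 3.62 CPM per kb and Tapbp at 2.82, so that their places were exchanged. In CL KO the order was as in CL WT, with Tapbp and H2-K1, and H2-K1 and H2-T23, closer than the sum of their SEs. In PI KO, Tap1 and Tap2 reached 0.531 and 0.521 CPM per kb and could not be ordered within their errors, nor could H2-K1 at 3.33 and Tapbp at 2.72. Levels from the WT and KO tables were scaled separately.

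The first question was which members differ between PI and CL cortex of the same animals. In WT animals, H2-K1, a classical class I heavy chain, and Tap1, a chain of the peptide transporter, rose in PI, and no member fell. H2-K1 was 1.66-fold higher (95% interval 1.34 to 2.07) and Tap1 2.10-fold higher (1.35 to 3.26). The other 5 listed members had differences from 0.13 to 0.48 on the log2 scale, none called. Calls here and below are adjusted p under 0.05 over all genes of the table. The 2 members called higher of 7 listed compare with 5.2% of 14489 genes called higher and 5.4% called lower. The members' median difference was 0.39, beside 0.01 over all genes. Tap1 was listed through its PI libraries (it was missing from the table of CL libraries alone), and Psmb8, Psmb9 and Cd74 were not listed. Counts over the listed members, and the call of Tap1 among them, are therefore a description.

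**Figure D1:**
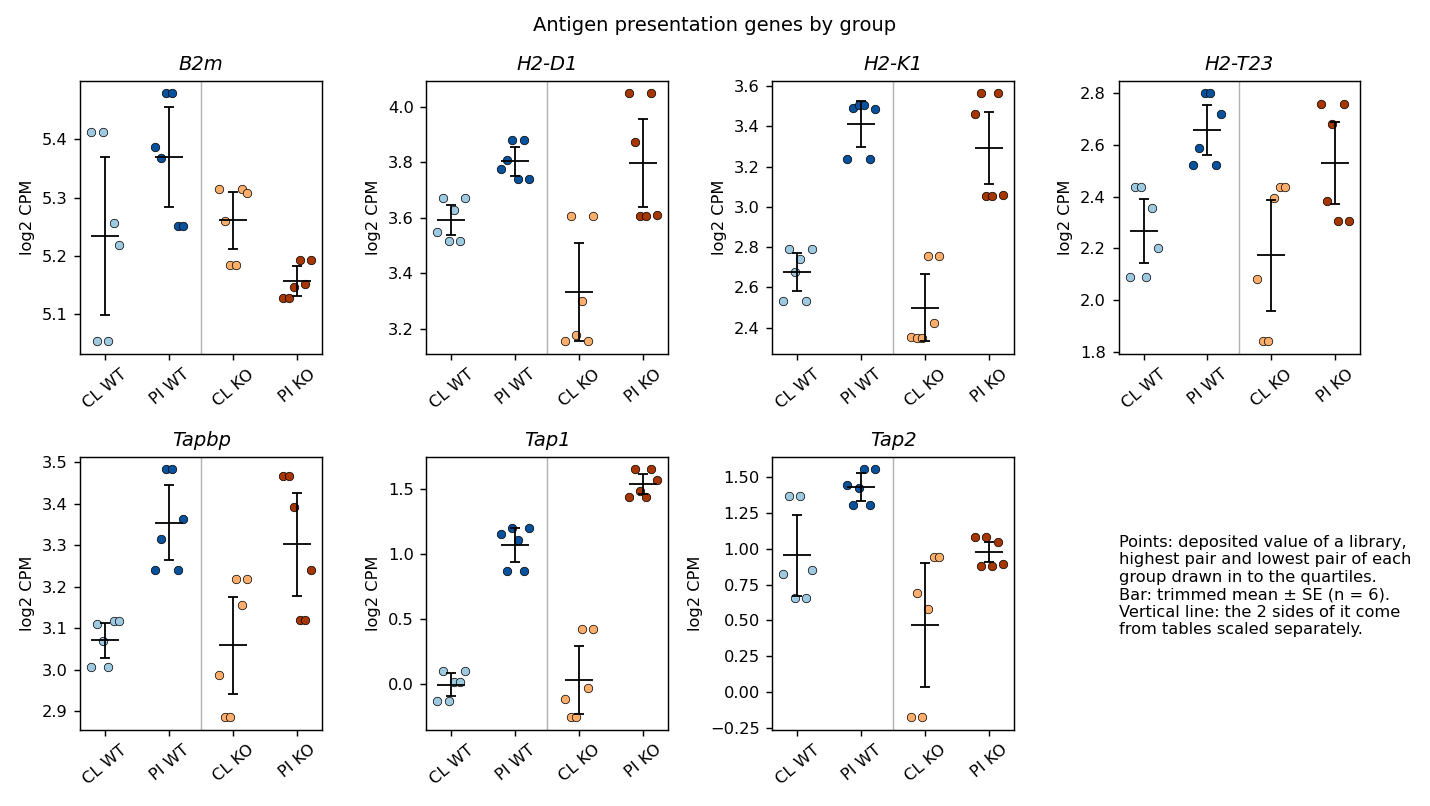
Deposited log2 CPM (vertical axis) of the 7 antigen presentation genes listed in both tables of PI against CL, by group (horizontal axis). Points are libraries, with the 2 highest and 2 lowest of each group drawn in to the quartiles, and bars give the trimmed mean ± SE (n = 6). As drawn, the PI points of H2-K1 and Tap1 lie above the CL points of the same genotype. So do those of H2-D1 (narrowly in KO) and, in WT only, of H2-T23 and Tapbp. B2m overlaps between PI and CL.

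H2-K1 lay at 2.48, 2.71 and 2.80 log2 CPM in CL WT (second lowest, median and second highest library) and at 3.16, 3.49 and 3.51 in PI WT. These inner values of PI and CL did not overlap. Inner values leave out the lowest and highest library of a group. The share of all genes without such overlap was not counted, here or below. The difference was 0.74 ± 0.15 (SE, n = 6 a group) with adjusted p = 0.00613, and it was called when any 1 of the 12 libraries was left out. Tap1 lay at -0.17, 0.01 and 0.13 log2 CPM in CL WT and at 0.79, 1.13 and 1.21 in PI WT, again with no overlap. Its difference was 1.07 ± 0.29 (SE, n = 6 a group) with adjusted p = 0.0348. That call was close to the threshold. With the animal as block it was lost (adjusted p = 0.0525), and leaving out 1 library kept it only for PI WT replicate 2 (0.0310) or PI WT replicate 5 (0.0333), the other 10 libraries giving up to 0.0804. Tap1 rests on few reads, about 5.33 to 8.82 per CL WT library and 12.9 to 21.9 per PI WT library. Reads, here and below, were computed from deposited values drawn in to the quartiles, so single libraries can lie outside these ranges.

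The remaining WT differences were smaller. H2-T23, the Qa-1 heavy chain, was at 2.05, 2.28 and 2.47 in CL WT and at 2.50, 2.65 and 2.83 log2 CPM in PI WT, a difference of 0.39 ± 0.16 (SE; adjusted p = 0.167). Tapbp, the tapasin gene, was at 2.99, 3.09 and 3.12 in CL WT and at 3.22, 3.34 and 3.52 in PI WT, a difference of 0.28 ± 0.12 (SE; adjusted p = 0.163). The inner values of both genes did not overlap between PI and CL, and neither passed the test. H2-D1, the other classical heavy chain listed, was at 3.50, 3.59 and 3.68 against 3.73, 3.79 and 3.90, a difference of 0.21 ± 0.10 (SE; adjusted p = 0.215). Tap2, the partner of Tap1, differed by 0.48 ± 0.29 (SE; adjusted p = 0.357), with inner CL WT values from 0.60 to 1.54 that overlapped PI WT. B2m, the light chain, differed by 0.13 ± 0.12 (SE; adjusted p = 0.572). Counting unadjusted p under 0.05, 4 of the 7 members passed, beside 23.9% of all genes.

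In KO animals the same 2 genes, Tap1 and H2-K1, rose in PI, and no member fell. Tap1 was 2.84-fold higher (95% interval 1.76 to 4.58) and H2-K1 1.73-fold higher (1.28 to 2.36). Of 14338 genes in this table, 5.11% were called higher and 4.94% lower. The members' median difference was 0.47 on the log2 scale, and that of all genes was -0.00068. At unadjusted p under 0.05, 3 of 7 members passed, beside 24.9% of all genes. These KO libraries are other animals than those of the WT comparison. Tap1 was listed through its PI libraries here too, so its call and the counts over listed members are again a description.

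Tap1 lay at -0.30, -0.08 and 0.58 log2 CPM in CL KO and at 1.42, 1.53 and 1.68 in PI KO, with no overlap of inner values. The difference was 1.51 ± 0.32 (SE, n = 6 a group; adjusted p = 0.0105) and was called in all 12 fits that left out 1 library (adjusted p up to 0.0321). About 5.02 to 10.02 reads per CL KO library and 15.99 to 20.6 per PI KO library stand behind it. H2-K1 lay at 2.35, 2.39 and 2.87 in CL KO and at 3.05, 3.26 and 3.596 in PI KO, a difference of 0.79 ± 0.20 (SE; adjusted p = 0.0282). Its call depended on single libraries. It was lost without PI KO replicate 1, 2 or 5 or without CL KO replicate 1, 2, 3 or 5 (adjusted p 0.0651 to 0.0786), and was kept without any of the other 5 libraries (0.0124 to 0.0374). With a prior variance that does not follow the mean level, it was 0.0753.

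H2-D1 differed by 0.47 ± 0.19 (SE) in KO animals, with 3.15, 3.24 and 3.71 log2 CPM in CL KO and 3.605, 3.74 and 4.11 in PI KO. It was not called (adjusted p = 0.142). Its adjusted p was 0.0459 without CL KO replicate 6, the shallowest library, and 0.0395 with the animal as block. On simulated data that block fit made more false calls than its threshold allows, so a value under 0.05 that only the block gives is not counted as a call here or below. Tap2 differed by 0.51 ± 0.40 (SE; adjusted p = 0.478). Its inner CL KO values, second lowest to second highest, ran from -0.43 to 1.03 log2 CPM. They covered nearly the whole inner range of PI KO, from 0.87 to 1.10. H2-T23 differed by 0.36 ± 0.23 (SE; adjusted p = 0.370) and Tapbp by 0.24 ± 0.16 (SE; adjusted p = 0.377), with overlapping values. B2m was the only listed member with a negative difference, -0.10 ± 0.07 (SE; adjusted p = 0.431), with PI KO at 5.12, 5.15 and 5.21 log2 CPM beside CL KO at 5.16, 5.28 and 5.32.

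Heavy and light chains can be set side by side. In WT animals the PI minus CL difference was 0.74 for H2-K1, 0.21 for H2-D1 and 0.13 for B2m, and in KO animals 0.79, 0.47 and -0.10 on the log2 scale. The difference between members was not tested. Reads of H2-K1, H2-D1 and H2-T23 are uncertain in part, since these class I genes have near copies. Of all windows of 50 bases in their GENCODE transcripts, 9.63% of H2-K1, 12.8% of H2-D1 and 13.6% of H2-T23 also occur in another gene, and how the authors assigned such reads is not given in the sources used here. No window of B2m occurs elsewhere, and 0.442% of those of Tap1 are shared, all with Tap2. B2m lies inside the span of Patl2 and H2-T23 inside that of A930015D03Rik, each on the opposite strand. Tapbp overlaps Zbtb22 on the same strand over 3422 bases, and Tap2 and Psmb8 each overlap the antisense gene Gm20496. The use of strand in the counting is not given either, so reads of these pairs cannot be told apart.

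**Figure D2:**
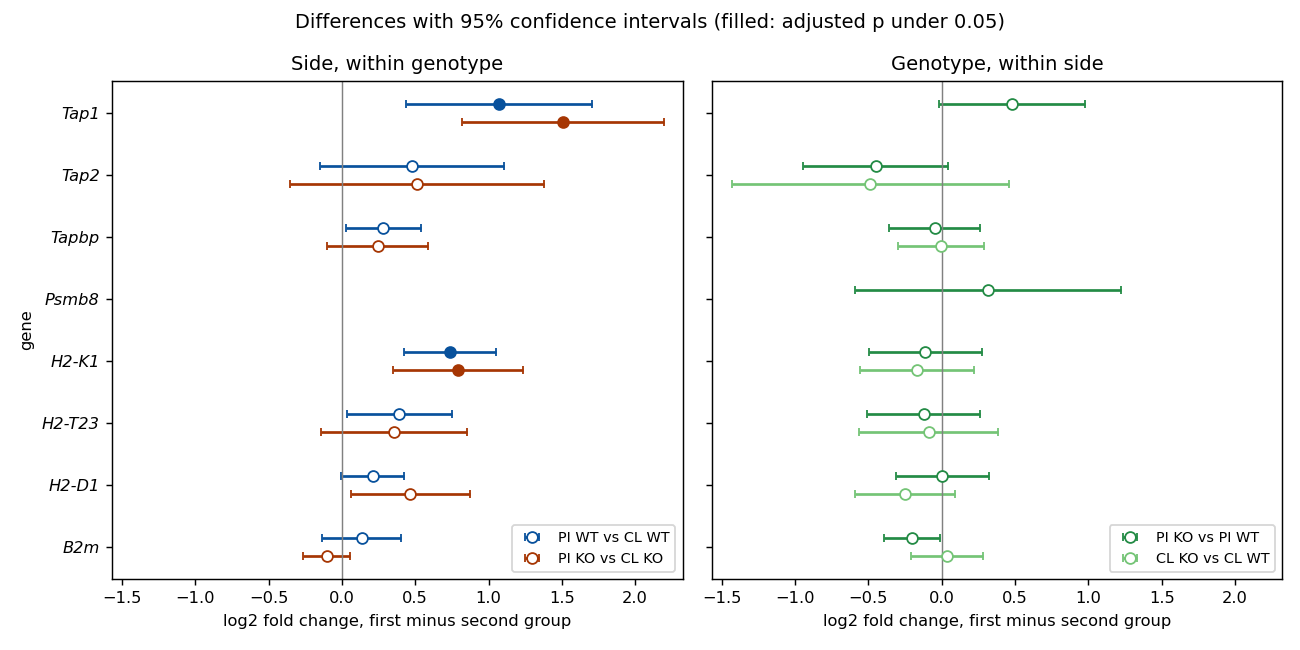
Difference in log2 CPM (horizontal axis, first minus second group) with its 95% confidence interval for each listed gene (vertical axis), for side within genotype (left) and genotype within side (right). Filled points have adjusted p under 0.05. Only Tap1 and H2-K1 are filled, both for side in WT and KO, and no genotype difference is filled.

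Whether the effect of side depends on genotype was tested as the difference of both differences (KO minus WT), over 14211 genes. None of the 7 members was called, and 0% of all genes was called by the trimmed-mean test, with 646 genes or 4.55% at unadjusted p under 0.05 and 1940 genes called by limma on the deposited values. Tap1 had 0.44 (95% interval -0.40 to 1.28), H2-D1 0.25 (-0.21 to 0.72) and B2m -0.24 (-0.56 to 0.08). H2-K1 had 0.06, with an interval from -0.49 to 0.61. H2-T23, Tap2 and Tapbp lay between -0.04 and 0.03, and the Tap2 interval ran from -1.02 to 1.09.

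The next question was which members differ between KO and WT within a side. In PI, none of the 8 listed members was called, beside 0.0208% of 14452 genes (3 genes). At unadjusted p under 0.05, 1 member passed, beside 5.75% of all genes. That member was B2m, with 5.24, 5.41 and 5.54 log2 CPM in PI WT and 5.15, 5.18 and 5.25 in PI KO, a difference of -0.21 ± 0.09 (SE; adjusted p = 0.854). Its inner values overlapped narrowly. The 2 transporter chains had opposite signs. Tap1 was at 0.82, 1.15 and 1.24 in PI WT and at 1.45, 1.56 and 1.71 in PI KO, a difference of 0.48 with a 95% interval from -0.02 to 0.97. Tap2 was at 1.29, 1.46 and 1.61 in PI WT and at 0.90, 1.00 and 1.13 in PI KO, a difference of -0.45 with an interval from -0.94 to 0.04. Inner values of KO and WT did not overlap for either gene, and both had adjusted p = 0.854. How many of all genes show such a gap was not counted. Ctsl, P4hb and Ctss, genes of the lists below, show it in PI as well, and none of them was called. The gaps and the opposite signs are therefore a description. This comparison uses the same PI libraries as those of side, so the values are not independent of them.

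Psmb8, the immunoproteasome subunit that replaces Psmb5, could be read only here. It was at 0.42, 0.71 and 1.34 log2 CPM in PI WT and at 0.29, 1.27 and 1.60 in PI KO, with overlapping values and a difference of 0.31 ± 0.42 (SE; adjusted p = 0.936). Between 7.34 and 21.3 reads per library stand behind it. H2-K1 (-0.11), H2-T23 (-0.12), Tapbp (-0.05) and H2-D1 (0.00) had PI differences with intervals inside -0.51 to 0.32. In CL, none of the 6 listed members was called, beside 0.0279% of 14323 genes (4 genes), and none passed at unadjusted p under 0.05, beside 5.73% of all genes. The CL differences were -0.49 for Tap2 (95% interval -1.43 to 0.46), -0.25 for H2-D1 (-0.59 to 0.09), -0.17 for H2-K1, -0.09 for H2-T23, -0.01 for Tapbp and 0.03 for B2m. The wide Tap2 interval comes with inner CL KO values that ranged from -0.46 to 1.00 log2 CPM.

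Other genes of the pathway were followed by list. Of 10 further genes of class I peptide loading, all listed, 4 rose in PI in WT animals and 3 in KO animals, and none fell. Over all genes, 5.2% were called higher and 5.4% lower in WT, and 5.11% and 4.94% in KO. The lists were chosen with earlier results of these data known, and called genes are named by smallest p. Counts of called genes, here and in the lists below, are therefore a description. Erap1, the peptidase that trims peptides to class I length, rose by 0.50 ± 0.10 (SE) in WT, with adjusted p = 0.00661. In KO it rose by 0.49 ± 0.12 (SE), with adjusted p = 0.0267, and that call was lost in 7 of the 12 fits without 1 library (up to 0.0734). P4hb, a protein disulfide isomerase, rose by 0.36 in WT and 0.45 in KO, and Sec61a1, a subunit of the translocon channel, rose by 0.40 and 0.42. Hspa5, the general chaperone BiP, rose by 0.25 in WT (adjusted p = 0.0227) and differed by 0.32 in KO (0.0667, and 0.000368 in the block fit). The WT call of Hspa5 was lost in 7 of the 12 fits without 1 library (up to 0.0655). Calr, Canx and Pdia3, chaperones of the class I loading complex itself, differed by 0.04, 0.06 and 0.12 in WT and by 0.08, 0.11 and 0.15 in KO and were not called. P4hb, Sec61a1 and Hspa5 also serve the folding and entry of secreted proteins in general.

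Of 19 other class I chains, 5 were listed in WT and 4 in KO, and none was called. Fcgrt, the neonatal Fc receptor, had the smallest p, with -0.42 in WT (adjusted p = 0.220) and -0.66 in KO (0.0937). Of 5 other immunoproteasome genes, 4 were listed. Psme2, a subunit of the PA28 proteasome activator, rose by 0.81 ± 0.15 (SE; adjusted p = 0.00485) in KO. In WT it differed by 0.44 ± 0.13 (SE; adjusted p = 0.0537, and 0.0338 in the block fit). Psme1, the partner subunit, differed by 0.25 in WT and 0.07 in KO, and Psmb10, the third inducible catalytic subunit, by 0.17 and 0.21, none called. Of the 3 constitutive catalytic subunits that the inducible ones replace, none was called in WT, and Psmb7 rose by 0.29 (adjusted p = 0.0404) in KO, a call lost in 8 of the 12 fits without 1 library (up to 0.105).

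Class II chains could not be read. H2-Aa, H2-Ab1 and H2-Eb1, the classical class II chains, were not listed in any table, like Cd74 and their master regulator Ciita. Of 18 other gene names of the class II pathway (Marchf1 under an older name too), 6 were listed for side, and in both genotypes 4 rose and 1 fell in PI. The shares of all genes called were 5.2% higher and 5.4% lower in WT, and 5.11% and 4.94% in KO. The 3 listed class II pathway genes that rose in both genotypes and act in the endosome are proteases. Lgmn rose by 0.32 in WT and 0.37 in KO, Ctsl by 0.28 and 0.54, and Ctss, the protease that removes the invariant chain, by 0.32 (adjusted p = 0.0488) and 0.49 (0.00265). Cd86, a costimulatory ligand, rose by 0.87 ± 0.18 (SE; adjusted p = 0.00762) in WT and by 0.76 ± 0.22 (SE; adjusted p = 0.0427) in KO. Without 1 library the WT call of Ctss was lost in 10 of 12 fits (up to 0.112), that of Ctsl in 3 (up to 0.0539), and the KO call of Cd86 in 9 (up to 0.1004). Marchf1, a ubiquitin ligase that removes class II from the surface, fell by 0.31 in WT and 0.38 in KO and is named after its values were seen.

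Of 23 regulators, 21 were listed for side. None fell in either genotype. In WT, Irf9, the DNA-binding subunit of the interferon-induced complex ISGF3, rose by 1.36 ± 0.18 (SE; adjusted p = 0.000539), Stat2 by 0.40 ± 0.09 (SE; 0.0126 adjusted) and Irf1 by 0.93 ± 0.27 (SE; 0.0476 adjusted). In KO, Irf9 rose by 1.11 ± 0.14 (SE; adjusted p = 0.000562). Irf1 differed by 0.72 (adjusted p = 0.0733) and Stat2 by 0.31 (0.225). The WT call of Irf1 was lost in 9 of the 12 fits without 1 library (up to 0.113), while Irf9 was called in all 12 fits in both genotypes. The NF-Y subunits and the RFX factors, which act on class I and class II promoters, held no call. No genotype difference was called for any gene of these lists in PI or in CL.

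**Figure D3:**
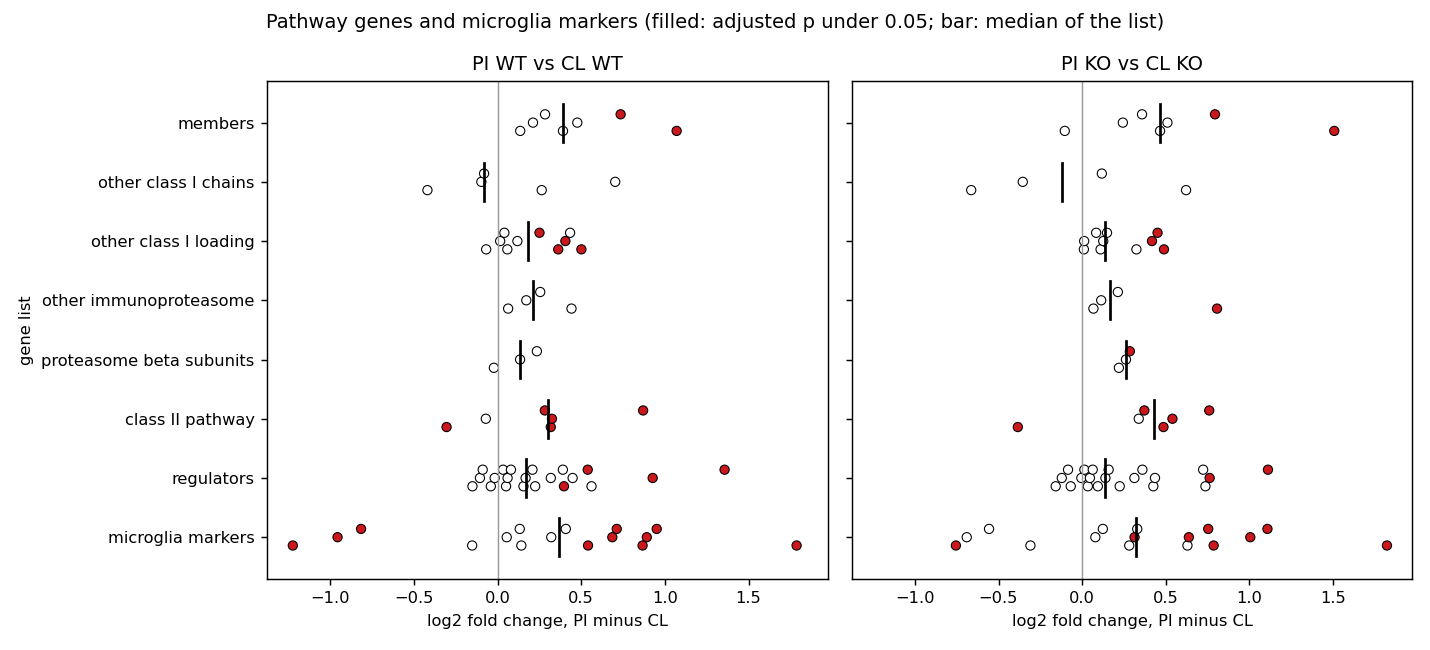
PI minus CL difference in log2 CPM (horizontal axis) of every listed gene of 8 lists (vertical axis), in WT (left) and KO (right). Filled points have adjusted p under 0.05 and bars mark the median of a list. The members hold 2 filled points in each genotype, the class II pathway holds 5 and the other class I chains hold none. Of all genes, 5.2% were called higher and 5.4% lower in WT, and 5.11% and 4.94% in KO.

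Within a group, most members moved together from library to library. Over 24 libraries, as deviations from the group means, the correlation (Pearson r) of a member with the mean of the others was 0.70 for H2-K1, 0.69 for H2-T23, 0.64 for Tap1, 0.64 for Tapbp, 0.46 for Tap2 and 0.35 for H2-D1. For B2m it was -0.12. The closest pair was H2-T23 and Tapbp at 0.67, followed by H2-K1 and Tap1 at 0.64. Each value comes from the same libraries, with the same depth and scaling, and from deposited values drawn in to the quartiles, so these are descriptions. PI WT replicate 3 was in the highest pair of its group for 6 of 7 members, and CL KO replicate 6 likewise for 6. PI WT replicate 5, PI KO replicate 4 and CL KO replicate 3 were in the lowest pair for 6 of 7. CL KO replicate 6 was also the shallowest library. What the depth contributes was not tested.

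**Figure D4:**
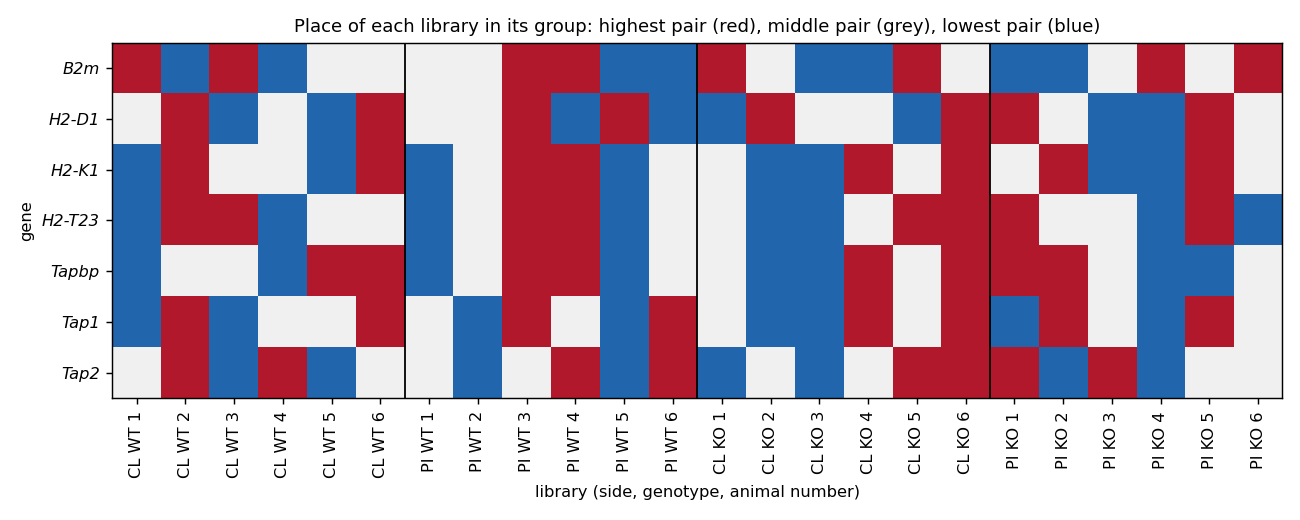
Place of each of the 24 libraries (horizontal axis) within its group of 6 for each of 7 genes (vertical axis), as highest pair (red), middle pair (grey) or lowest pair (blue). PI WT 3 and CL KO 6 are red for 6 of 7 genes, and PI WT 5, PI KO 4 and CL KO 3 are blue for 6 of 7.

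The genes most like the members across these libraries, among 11787 other genes at a mean of at least 2 log2 CPM in both tables, were Ykt6 (r = 0.83), Smg5 (0.79), Grn (0.76), Rgs16 (0.74) and Rnps1 (0.74). Ykt6 encodes a SNARE protein of membrane fusion and Grn the lysosomal growth factor progranulin. Ykt6 rose in PI in WT by 0.34 (adjusted p = 0.00895) and differed by 0.22 (0.124) in KO. Smg5 differed by 0.30 in KO (adjusted p = 0.0563, and 0.0200 in the block fit). Rgs16 differed by -0.10 in WT and -0.02 in KO.

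Markers of other cells moved with side as well. In bulk cortex, more cells of a type and more RNA per cell cannot be told apart. Beside the marker counts for side in this paragraph stand 5.2% of all genes called higher and 5.4% lower in WT. In KO these shares were 5.11% and 4.94%. Of 16 microglia markers, all listed, 7 rose and 3 fell in PI WT, and 7 rose and 1 fell in PI KO. Their summed level in WT animals was 225 to 241 CPM in CL libraries beside 255 to 292 CPM in PI libraries. In KO animals it was 239 to 266 CPM beside 289 to 346 CPM, and these PI and CL ranges did not overlap in either genotype. All CPM ranges in this paragraph come from deposited values, drawn in to the quartiles gene by gene. They therefore understate the spread between libraries, and groups separate more easily. C1qb, a complement gene of microglia, rose by 0.87 in WT and 1.01 in KO, while P2ry12, a homeostatic receptor, fell by 0.82 and 0.75. Of 14 monocyte and macrophage markers 7 were listed, with sums of 121 to 134 CPM (CL) beside 130 to 158 CPM (PI) for WT animals, and 125 to 139 CPM (CL) beside 130 to 154 CPM (PI) for KO animals. A sum is weighted to the most abundant markers. The median difference of these 7 markers was 0.79 on the log2 scale in WT (6 positive) and 0.54 in KO (5 positive). Mrc1, F13a1 and Lyve1 rose in each genotype, and Ccr2 and Ly6c2 were not listed. Of 17 lymphocyte markers only Trbc2 was listed, at 5.29 to 8.26 CPM over the PI and CL libraries, and the T cell gene Cd3e was not listed in any table. Of 10 neutrophil markers only Csf3r was listed for side, and of 12 endothelial markers, all listed, 1 rose in each genotype and 1 fell in KO. Dendritic markers listed were 3 of 8, and Siglech, also a microglia marker, fell in WT. Neuron, astrocyte and oligodendrocyte markers were all listed. Of 10 neuron markers, 3 fell in PI WT, and 1 rose and 3 fell in PI KO. Of 8 astrocyte markers, 1 rose and 3 fell in PI WT, and 1 rose and 1 fell in PI KO. Of 8 oligodendrocyte markers, 1 fell in PI WT and none was called in KO. Summed neuronal levels were lower in PI, with 8025 to 8772 CPM beside 9225 to 9862 CPM (CL) for WT animals and 7722 to 8503 CPM beside 9245 to 9612 CPM (CL) for KO animals. Astrocyte sums were lower in PI too, with 6714 to 7114 CPM beside 7723 to 8115 CPM (CL) for WT and 6512 to 7210 CPM beside 7727 to 8240 CPM (CL) for KO. Oligodendrocyte sums were 1499 to 2119 CPM in PI beside 2151 to 2351 CPM (CL) for WT, and overlapped for KO, with 1671 to 1886 CPM beside 1715 to 2332 CPM (CL). Between genotypes, within 1 table, microglia sums were 259 to 298 CPM in PI WT beside 295.5 to 354 CPM in PI KO, with no marker called, and 3 listed neutrophil markers summed to 3.8 to 5.7 CPM beside 5.2 to 11.3 CPM. The part that cell composition has in the differences of the antigen presentation genes was not tested.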

How the data were processed

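Ribosome-depleted total RNA of 24 mouse cortex libraries was measured in 4 groups of 6. The authors deposited 4 tables of log2 CPM (read counts scaled to a common library total), each holding 2 groups and each scaled on its own. The build is mm10 per the submitters' processing notes, and the aligner, counter, filter and scaling are not given in the sources used here. In every group the 2 lowest values of a gene are tied, as are the 2 highest, for 100% of genes, as if drawn in to the quartiles. The second lowest and second highest values were solved from the quartiles (weights 0.75 and 0.25), and the lowest and highest cannot be recovered. A limma fit to the values as deposited therefore understates the spread.

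Groups were compared within a table by a Yuen trimmed-mean test on the 4 inner values, moderated by limma 3.58.1 (empirical Bayes with trend, R 4.3.3), two-sided, with Benjamini-Hochberg adjustment over the table and calls at adjusted p under 0.05. On data simulated for the side comparisons, with genes drawn independently of each other, this test kept to its threshold. The animal block and limma on the deposited values made too many false calls there, so calls that only these give are not counted. The genotype comparisons and the interaction were not simulated. The interaction is the difference of the PI minus CL differences. The same animal gave the CL and PI library of a number, so the animal was a block in an alternative fit. Deviations of same-numbered libraries correlated at -0.01 to 0.21 in WT and -0.01 to 0.19 in KO. Animals are separate within a group, so p-values measure the spread between animals within groups. For side and the interaction, the main test did not use the pairing of CL and PI libraries. Its p-values there do not measure the spread of the PI minus CL difference between animals. Members and lists were chosen with earlier results of these data known. Named were all 10 members, up to 4 called genes by smallest p from each of 6 pathway lists (without a call the 1 with the smallest p), and the 5 genes most alike. One gene that this rule names is not reported here. Depth was read from the step of low CPM values. Positions are from GENCODE M21 (GRCm38) and start regions from RefSeq, read with Python 3.11.15. Tap2 had no start region there. Alternatives were limma on deposited values, no variance trend, a pseudocount of 1 CPM, a filter at a mean of 1 log2 CPM, median centring, the block and leaving out each library.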

Additional observations from a re-analysis of the deposited data

How the results depend on the processing

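With limma on the deposited values, whose spread is understated, 6459 genes were called for side in WT, 6666 in KO, 2388 for genotype in PI, 2311 in CL and 1940 for the interaction, and called members numbered 6 higher in WT, 5 higher and 1 lower in KO, 1 higher and 2 lower for genotype in PI, and 1 for the interaction. Without a variance trend, 1015 genes were called in WT, 739 in KO, and 1 member in KO. The filter on low values leaves out Tap1 by construction, which left 1 member called in each genotype. With the animal as replicate block, which made too many false calls on simulated data, 1 member was called in WT. The groups of the genotype comparisons share only numbers (correlations of same-numbered libraries -0.18 to 0.13, the own number being the best for 1 of 6 in PI and 3 of 6 in CL), and there the block called 6 genes in PI and 85 in CL, and 1 for the interaction. The block moved no other count by over 1.5 times. Leaving out 1 library gave 900 to 1602 genes called in KO (900 without CL KO replicate 5 and 922 without PI KO replicate 2), 3 to 7 for genotype in CL (7 without CL KO replicate 1), 1 to 2 members called higher in WT and 1 to 3 in KO. Small differences changed sign without 1 library. Ranges were -0.0448 to 0.109 for B2m, -0.184 to 0.0486 for H2-T23 and -0.0658 to 0.0643 for Tapbp in CL KO against CL WT, -0.0988 to 0.0692 for H2-D1 and -0.111 to 0.0237 for Tapbp in PI KO against PI WT, -0.111 to 0.0566 for Rgs16 and -0.0113 to 0.0691 for Rnps1 in PI KO against CL KO. For the interaction they were -0.0424 to 0.182 for H2-K1, -0.170 to 0.0608 for H2-T23, -0.264 to 0.221 for Tap2 and -0.109 to 0.0336 for Tapbp. With log2(CPM + 1) the Tap2 interaction was -0.0293. The cause was not tested where not named. No alternative reversed the sign of H2-K1 or Tap1 for side. Depth limits Tap1, Tap2 and Psmb8, which rest on few reads, and genes that were not listed.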
